A study of Mus musculus with 12 samples.

Results

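A set of 10 fibroblast marker genes was followed in the hearts of mice that express NOTCH2NLC with 98 GGC repeats. They are 10 of the 25171 loci in the table of counts, found by their gene symbols. The list holds 7 markers of activated fibroblasts (Postn, Cthrc1, Cilp, Fn1, Meox1, Tnc and Fap) and 3 of resting fibroblasts (Pdgfra, Tcf21 and Dpt). The list was drawn up with the high levels of Cthrc1 and Postn in Myh6-tg hearts already known, so the change of the 10 genes in Myh6-tg hearts is described without a test.

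The 4 groups comprised 3 mice each, and RNA of their 12 hearts was sequenced. All mice carried a conditional transgene at the Rosa26 site in which a loxP-flanked stop sequence precedes NOTCH2NLC-(GGC)98. EIIa-tg mice (E2a in the labels) also carried EIIa-Cre, which acts in all tissues, and their littermates without this Cre (EIIa-ctl) were the controls at postnatal day 30. Myh6-tg and Myh6-ctl mice were both labelled with the Myh6 transgenic genotype, in which a tamoxifen-inducible Cre is made by cardiomyocytes from the Myh6 promoter. From day 60 Myh6-tg mice received 3 injections of tamoxifen at 75 mg per kg and Myh6-ctl mice received corn oil, and hearts were taken at day 90. By the labels, tamoxifen and recombination of the transgene therefore go together in this model, and their parts in any difference cannot be told apart. Age, the Cre line and the injections likewise cannot be told apart between the models.

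Between 38343106 and 50969834 reads per heart were counted on genes, so a floor of 3 counts lay at 0.0568 to 0.0815 CPM (counts per library, scaled to one common total), which allows for counting error alone. All CPM are after scaling of the library sizes by TMM, the trimmed mean method of edgeR. The mitochondrial genes took between 28.5% and 38.3% of the counts in EIIa-ctl, EIIa-tg and Myh6-ctl hearts and between 15.5% and 18.6% in Myh6-tg hearts. Transcripts of Y-linked genes were found in replicate 1 of each group and were at 2 counts or fewer in the other hearts. The genotype tags of EIIa-tg replicates 2 and 3 read e3a and e4a, and these hearts were grouped by their titles. The labels give heart as the tissue, while the extraction text speaks of brain. The 12 cardiomyocyte markers summed to between 13018 and 67101 CPM in these libraries. The transgene itself was not analysed here. Esr1, whose ligand-binding part is used in inducible Cre proteins, stood at 1031 to 2331 CPM in the hearts labelled Myh6-ctl and at 1.00 to 2.52 CPM in those labelled Myh6-tg, although the labels give both the inducible Cre. This Esr1 pattern goes against the genotype labels, and in what follows Myh6-tg and Myh6-ctl mean the hearts labelled so. Were the labels of these groups exchanged, each direction of the Myh6 comparison below would turn. The comparison of the control groups and the difference of changes between the models would then take other values. This was not tested.

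Cardiac fibroblasts hold and renew the collagen network between cardiomyocytes. In the resting state they express the platelet-derived growth factor receptor PDGFRα, the transcription factor TCF21, which is needed for fibroblasts to form from the epicardium, and the matrix protein dermatopontin. After injury or under load, TGFβ, mechanical stress and PDGF signals drive them to proliferate, to contract and to secrete matrix, and periostin is the best known marker of this activated state. In bulk RNA of heart tissue, more cells of a type and more RNA per cell cannot be told apart, and neither can fewer cells and less RNA.

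Promoters of 6 members (Postn, Cilp, Tnc, Pdgfra, Tcf21 and Dpt) were in the RefSeq table used here, which is built on GRCm38.p6. Cthrc1, Fap, Fn1 and Meox1 had no entry. The 4 shown, each of 250 bases before the annotated start, were chosen because Postn and Cilp are the activated members with an entry that stood highest in Myh6-tg hearts and Pdgfra and Tcf21 are resting members with other patterns. For Postn the start nearest to that of GENCODE M21 was used. Capitals mark matches on either strand to one of 6 short motifs, namely CAGAC (bound by SMAD proteins), TGANTCA (AP-1), CATTCC (TEAD), TATAA (TATA box), TAATTA (homeobox proteins) and CATNTG (one form of E-box).
Postn (chr3:54360857-54361106, plus strand): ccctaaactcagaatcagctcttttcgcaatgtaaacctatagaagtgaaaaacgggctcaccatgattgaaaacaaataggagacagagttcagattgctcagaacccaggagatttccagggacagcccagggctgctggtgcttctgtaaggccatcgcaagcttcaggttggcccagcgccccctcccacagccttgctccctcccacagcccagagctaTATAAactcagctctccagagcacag
Cilp (chr9:65264930-65265179, plus strand): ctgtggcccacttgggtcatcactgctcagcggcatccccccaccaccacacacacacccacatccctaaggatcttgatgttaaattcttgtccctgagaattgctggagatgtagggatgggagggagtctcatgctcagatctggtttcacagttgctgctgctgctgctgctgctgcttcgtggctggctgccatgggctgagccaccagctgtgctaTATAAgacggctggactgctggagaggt
Pdgfra (chr5:75152001-75152250, plus strand): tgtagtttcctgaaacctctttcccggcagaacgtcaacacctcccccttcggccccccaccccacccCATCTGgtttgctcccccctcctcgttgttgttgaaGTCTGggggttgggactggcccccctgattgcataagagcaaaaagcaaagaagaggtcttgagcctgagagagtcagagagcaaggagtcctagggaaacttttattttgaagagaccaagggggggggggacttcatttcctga
Tcf21 (chr10:22820144-22820393, minus strand): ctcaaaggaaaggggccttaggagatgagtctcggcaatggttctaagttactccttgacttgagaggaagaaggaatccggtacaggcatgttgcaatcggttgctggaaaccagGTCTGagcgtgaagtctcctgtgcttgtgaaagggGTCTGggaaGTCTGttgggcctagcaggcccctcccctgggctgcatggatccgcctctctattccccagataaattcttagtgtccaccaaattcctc
Postn and Cilp each held one match, a TATAA on the strand of the gene that begins 26 bases before the start of Postn and 28 before that of Cilp. Of 32851 promoters in the table, 22.8% held TATAA on either strand, and 3.52% held it on the strand of the gene between 20 and 40 bases before the start. Pdgfra had none of these and held CAGAC at 146 and CATNTG at 182 bases before the start. In Tcf21 the motif CAGAC occurred 3 times, at 134, 99 and 90 bases before the start, all on the opposite strand. CAGAC was present in 42.2% and CATNTG in 35.0% of all promoters. No match to TGANTCA (6.75% of promoters), CATTCC (12.6%) or TAATTA (4.84%) was in the windows of the 4 genes, and none of the matches overlapped another. These are matches of letters, not measured binding sites.

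The order of the 10 levels was much alike in EIIa-ctl, EIIa-tg and Myh6-ctl hearts and different in Myh6-tg hearts. On the FPKM scale (fragments per kilobase of transcript, scaled to depth), which accounts for transcript length, Dpt had the highest level of the 10 in EIIa-ctl (46.0 ± 14.3, SD, n = 3) and in Myh6-ctl hearts (69.7 ± 43.4), followed by Postn (18.2 ± 7.60 and 25.3 ± 13.6). In EIIa-tg hearts these were first and second too (74.9 ± 21.2 and 37.0 ± 17.1). Tcf21, Fn1 and Meox1 came next in EIIa-ctl hearts with overlapping ranges (9.05 ± 2.91, 8.98 ± 2.29 and 8.50 ± 2.61), and Meox1 was the lowest of them in each heart. Pdgfra and Cilp stood below them (5.95 ± 0.336 and 3.83 ± 1.62), with Pdgfra above Cilp in each heart although their ranges overlapped. Cthrc1 was the lowest, at 0.222 ± 0.107 FPKM in EIIa-ctl and 0.192 ± 0.109 FPKM in Myh6-ctl hearts. In Myh6-tg hearts Postn was first (626 ± 326 FPKM) and above Cilp (215 ± 151 FPKM) in each heart, although their ranges overlapped. Cilp had a mean ahead of Dpt (72.4 ± 44.6 FPKM) and Fn1 (68.9 ± 35.3 FPKM), which overlapped. Cthrc1 reached 19.5 ± 10.2 FPKM there, below Pdgfra (25.8 ± 3.91 FPKM) and above Tcf21 (17.4 ± 9.12 FPKM) in each heart, although the ranges overlapped. Tnc was now the lowest (1.03 ± 0.529 FPKM). The levels of all members in each heart are plotted by group.

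**Figure D1:**
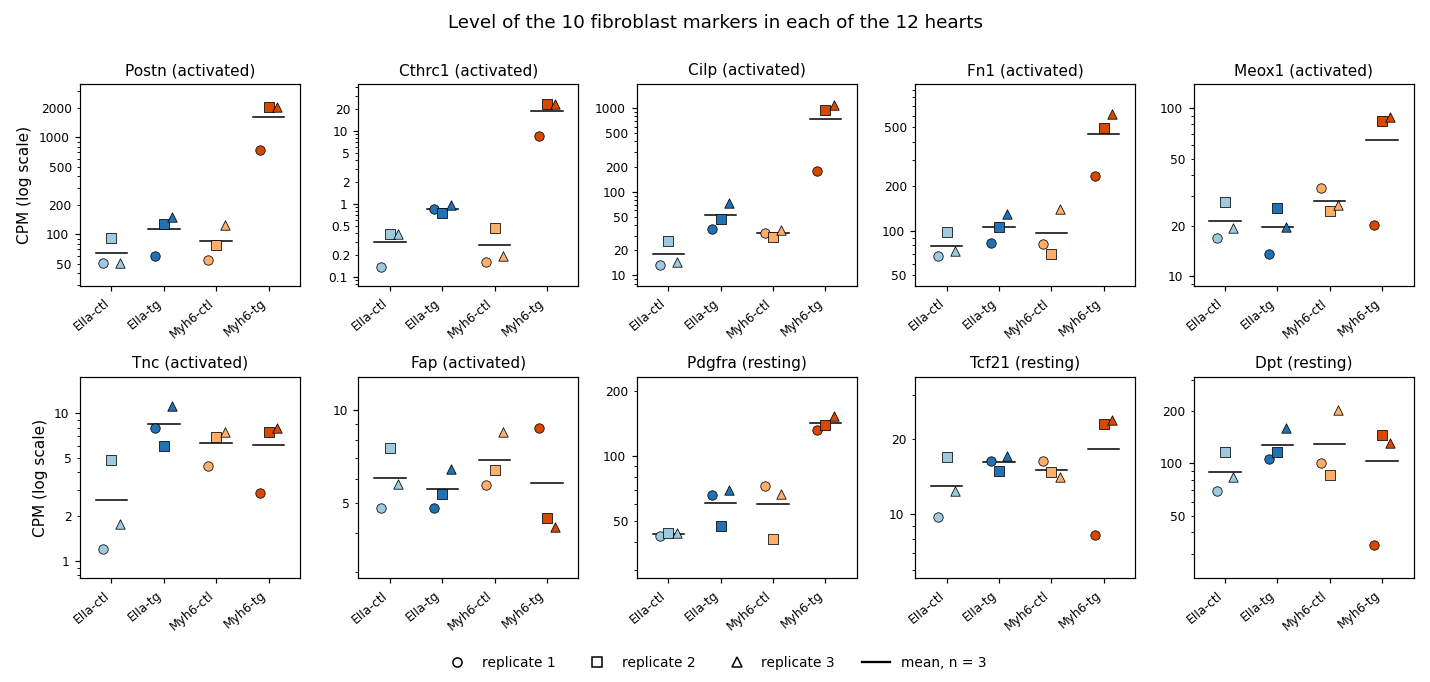
Level of each of the 10 markers in CPM (log axis, one panel per gene) in the 12 hearts, by group, with a symbol for each replicate number and a line at the mean of 3 hearts. Postn, Cthrc1, Cilp, Fn1 and Pdgfra are higher in all 3 Myh6-tg hearts than in any Myh6-ctl heart, and replicate 1 of Myh6-tg is the lowest of its group for 9 of the 10 genes.

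Postn, Cthrc1 and Cilp, which are secreted into the matrix, showed the widest differences between Myh6-tg and Myh6-ctl hearts. The 10 members are protein-coding genes, and positions are those of GENCODE M21 on GRCm38.

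Postn (chr3:54361109-54391037, plus strand) encodes periostin, a matrix protein that binds integrins and takes part in collagen assembly. It stood at 54.9, 78.0 and 125 CPM in the Myh6-ctl hearts and at 733, 2064 and 2036 CPM in the Myh6-tg hearts. Every Myh6-tg heart was above every other heart of the series, and replicate 1 was at a lower level than the other pair. The fold change was 18.7 (log2 4.23, SE 0.52). In EIIa-ctl hearts Postn was at 50.2, 91.4 and 50.3 CPM and in EIIa-tg hearts at 59.4, 128 and 152 CPM. These groups overlapped, and the log2 fold change of 0.82 (SE 0.35) did not pass the test (adjusted p = 0.138 by edgeR's quasi-likelihood test with Benjamini-Hochberg adjustment over all 14908 genes tested).

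Cthrc1 (chr15:39076932-39087121, plus strand) encodes a secreted protein of injured vessels and scars that is made by a subset of activated fibroblasts. It was low in controls, with 6, 15 and 14 counts in EIIa-ctl and 7, 18 and 10 counts in Myh6-ctl hearts. Myh6-tg hearts had 398, 1106 and 1268 counts, or 8.50, 24.0 and 24.0 CPM against 0.158, 0.466 and 0.190 CPM in Myh6-ctl. The groups were far apart, with a fold change of 70.4 (log2 6.14, SE 0.60), the widest of the 10 members. EIIa-tg hearts had 34, 38 and 44 counts, or 0.838, 0.755 and 0.980 CPM, and each was above each EIIa-ctl heart. The log2 fold change of 1.50 (SE 0.53) in the EIIa model did not pass the test (adjusted p = 0.0825). It passed in 2 of 15 alternatives, both on FPKM, with an adjusted p between 0.0291 and 0.234 over all of them.

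Cilp (chr9:65265180-65280605, plus strand) encodes a matrix protein first known from cartilage that can bind TGFβ1. Myh6-ctl hearts had 32.2, 29.1 and 35.4 CPM and Myh6-tg hearts 177, 936 and 1086 CPM. All 3 Myh6-tg hearts were above the controls, with the widest relative spread of any member in this group (coefficient of variation, CV, 66.5%), and the fold change was 22.8 (log2 4.51, SE 0.65). In the EIIa model the values were 13.3, 25.7 and 14.7 CPM in EIIa-ctl and 36.3, 47.8 and 73.8 CPM in EIIa-tg hearts. Cilp rose there 2.94-fold (log2 1.55, SE 0.31, adjusted p = 0.0219), and the groups did not overlap.

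Fn1 (chr1:71585520-71653200, minus strand) encodes fibronectin, the matrix glycoprotein on which collagen fibres are laid down and which integrins bind. It was at 81.1, 69.4 and 141 CPM in Myh6-ctl and at 234, 498 and 618 CPM in Myh6-tg hearts. The groups were separate and the fold change was 4.65 (log2 2.22, SE 0.42). EIIa-ctl hearts had 67.0, 98.3 and 72.6 CPM and EIIa-tg hearts 82.3, 105 and 129.5 CPM, which overlapped (log2 fold change 0.41, SE 0.19, adjusted p = 0.167).

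Meox1 (chr11:101877510-101894374, minus strand) encodes a homeobox transcription factor that switches on with fibroblast activation. It was at 33.6, 24.5 and 26.6 CPM in Myh6-ctl hearts, and at 20.3, 83.6 and 89.0 CPM in Myh6-tg hearts. Replicate 1 lay below all 3 controls and the other pair above them, so the groups overlapped although the log2 fold change was 1.19 (SE 0.49), and 1.61 without that heart. EIIa-ctl (16.9, 27.7 and 19.4 CPM) and EIIa-tg hearts (13.6, 25.6 and 19.7 CPM) covered the same range (log2 fold change -0.12, SE 0.25, adjusted p = 0.781).

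Tnc (chr4:63959785-64047015, minus strand) encodes tenascin-C, a matrix glycoprotein of the developing and injured heart. Its pattern differed from those above. EIIa-ctl hearts had 1.21, 4.79 and 1.77 CPM and EIIa-tg hearts 7.99, 6.02 and 11.2 CPM. Tnc rose in EIIa-tg hearts 3.23-fold (log2 1.69, SE 0.48, adjusted p = 0.0456), without overlap of the groups. In Myh6-ctl (4.37, 6.94 and 7.48 CPM) and Myh6-tg hearts (2.88, 7.49 and 7.93 CPM) the ranges overlapped, with a log2 difference of -0.04 (SE 0.41), or 0.30 without Myh6-tg replicate 1.

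Fap (chr2:62500943-62574075, minus strand) encodes fibroblast activation protein, a protease of the cell surface. It was within 4.20 and 8.71 CPM in all 12 hearts. Myh6-tg hearts had 8.71, 4.49 and 4.20 CPM, so that here replicate 1 was the highest of the group, while Myh6-ctl hearts had 5.72, 6.40 and 8.48 CPM. The log2 difference was -0.24 (SE 0.34). The difference in the EIIa model was also small (4.83, 7.50 and 5.76 CPM against 4.81, 5.36 and 6.46 CPM, log2 -0.12, SE 0.21, adjusted p = 0.714).

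Of the resting markers, Pdgfra was the one with a change in both models. Pdgfra (chr5:75152292-75198215, plus strand) encodes the receptor for PDGF-A and PDGF-C. EIIa-ctl hearts were close together at 42.9, 44.4 and 44.2 CPM, and EIIa-tg hearts had 65.9, 47.6 and 69.7 CPM. The rise of 1.39-fold (log2 0.47, SE 0.14) passed the test narrowly (adjusted p = 0.0497), and the groups did not overlap. Myh6-ctl hearts had 72.8, 41.3 and 66.7 CPM and Myh6-tg hearts 132, 139 and 154 CPM, which were all above the controls, with a fold change of 2.35 (log2 1.23, SE 0.24). It was also the member in which the 3 Myh6-tg hearts differed least (CV 7.81%).

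Tcf21 (chr10:22817281-22820174, minus strand) overlapped between the groups of both models. It had 16.3, 14.8 and 14.0 CPM in Myh6-ctl and 8.28, 22.9 and 23.7 CPM in Myh6-tg hearts, where replicate 1 was below and the other pair above all controls (log2 0.28, SE 0.37, and 0.63 without replicate 1). In EIIa-ctl hearts it was at 9.72, 16.9 and 12.3 CPM and in EIIa-tg hearts at 16.3, 14.9 and 17.1 CPM (log2 0.31, SE 0.19, adjusted p = 0.290).

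Dpt (chr1:164796644-164824266, plus strand) encodes dermatopontin, which binds decorin and collagen. Myh6-tg replicate 1 had the lowest level of the series, 33.7 CPM, while replicates 2 and 3 had 145 and 131 CPM, within the range of the Myh6-ctl hearts (100.4, 85.3 and 202 CPM). The log2 difference was -0.33 (SE 0.54), and 0.09 without replicate 1. EIIa-tg (105, 116 and 159 CPM) and EIIa-ctl hearts (68.7, 116 and 83.3 CPM) overlapped (log2 0.50, SE 0.21, adjusted p = 0.130). Exons of Tnc, Fn1 and Pdgfra overlap annotated antisense genes, and since the way reads were assigned to strands is not given in the sources used here, their counts may hold reads of those genes.

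Of the 10 members, 3 rose in EIIa-tg hearts (Cilp, Tnc and Pdgfra) and 0 fell, where 8.65% of all genes tested passed an adjusted p of 0.05 with a higher and 8.30% with a lower level. With Cthrc1, 4 of the 10 lay above the controls without overlap and 0 lay below, against 20.3% and 20.8% of all genes. An unadjusted p under 0.05 was found for 4 of the 7 activated and 2 of the 3 resting markers. The share of all genes at this unadjusted threshold was not counted, here or below, so nothing is read from such counts. The median log2 fold change was 0.82 for the activated and 0.47 for the resting markers, beside 0.02 for all genes. These calls changed when a heart was left out, as did those over all genes, and such fits hold fewer hearts. None of the 10 passed without EIIa-ctl replicate 1 or 3 or without EIIa-tg replicate 1 or 3, 2 passed without EIIa-ctl replicate 2, and 3 without EIIa-tg replicate 2. Over all genes 2527 were called with all 6 hearts. Without EIIa-ctl replicate 1, 2 or 3 there were 0, 1794 and 1, and without EIIa-tg replicate 1, 2 or 3 there were 0, 4079 and 133. Over all alternatives the adjusted p ranged from 0.00190 to 0.153 for Tnc, from 2.43e-06 to 0.118 for Cilp and from 0.00259 to 0.196 for Pdgfra.

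In Myh6-tg hearts, 5 of the 10 members (Postn, Cthrc1, Cilp, Fn1 and Pdgfra) lay above the controls without overlap and 0 lay below. Over all genes these shares were 20.6% and 19.6%, and 8.96% were called higher and 9.38% lower, 2805 genes in all. That total was 798, 1755 and 1637 without Myh6-ctl replicate 1, 2 or 3 and 4269, 982 and 969 without Myh6-tg replicate 1, 2 or 3. Since the members were chosen with this comparison known, nothing is read from these counts. The median log2 fold change was 2.22 for the 7 activated and 0.28 for the 3 resting markers, and 0.03 for all genes. The activated markers were thus not uniform, with 3 of them (Meox1, Tnc and Fap) overlapping the controls. Without Myh6-tg replicate 1 the log2 fold changes were 4.57 for Postn, 6.49 for Cthrc1, 4.97 for Cilp, 2.52 for Fn1 and 1.28 for Pdgfra.

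**Figure D2:**
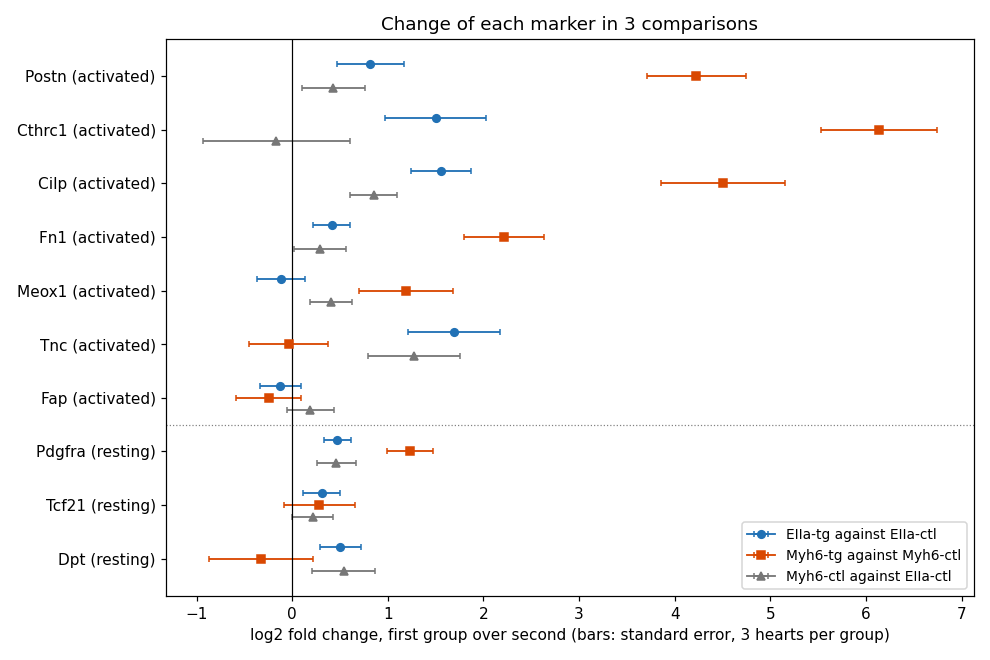
Log2 fold change (horizontal axis, bars show the standard error, 3 hearts per group) of each marker in EIIa-tg against EIIa-ctl, Myh6-tg against Myh6-ctl and Myh6-ctl against EIIa-ctl hearts. Cthrc1, Cilp and Postn lie above 4 in the Myh6 comparison, whereas Tnc is at 1.69 in the EIIa comparison and at -0.04 in the Myh6 comparison.

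The 2 control groups were compared to see how the markers stood in the hearts labelled as controls. They differ in age, Cre line and injections. None of the 10 members was called between Myh6-ctl and EIIa-ctl hearts by edgeR, where 0.0200% of all genes were called higher and 0.0133% lower. DESeq2 called 1 of them, Cilp (adjusted p = 0.0380), and 428 of 19244 genes in all. Unadjusted p-values were under 0.05 for Tnc (log2 1.27, SE 0.49, adjusted p = 0.374) and Cilp (log2 0.85, SE 0.25, adjusted p = 0.234). Cilp was the only one of the 10 whose groups did not overlap, against 8.73% of all genes above and 8.71% below. The same control hearts serve in the comparisons above, so these values are not independent of them.

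The change of Cthrc1 in the Myh6 model exceeded that in the EIIa model by 4.62 (SE 0.74) on the log2 scale. For the next genes this difference of changes was 3.41 (SE 0.66) for Postn, 2.95 (SE 0.73) for Cilp and 1.80 (SE 0.49) for Fn1. Meox1 (1.30, SE 0.61) and Pdgfra (0.75, SE 0.28) followed. For Tnc the difference had the opposite sign (-1.73, SE 0.70), and for Dpt, Fap and Tcf21 it was -0.84 (SE 0.65), -0.12 (SE 0.42) and -0.03 (SE 0.45). Of all genes, 1.65% were called with a higher and 2.27% with a lower change in Myh6-tg hearts, and for the members these differences are a description with no test.

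To set the activated against the resting markers within a heart, the mean log2 CPM of the 7 and of the 3 genes was taken. The activated mean was 3.26 ± 0.50 (SD, n = 3) in EIIa-ctl hearts and 4.10 ± 0.33 in the EIIa-tg group. It was 3.76 ± 0.24 in Myh6-ctl hearts against 6.16 ± 0.76 in those labelled Myh6-tg. The resting mean stayed within a narrower range, at 5.19 ± 0.27, 5.63 ± 0.20, 5.56 ± 0.31 and 5.87 ± 0.71 in the same order. The activated mean minus the resting mean was -1.93 ± 0.24, -1.53 ± 0.27 and -1.81 ± 0.33 in EIIa-ctl, EIIa-tg and Myh6-ctl hearts, which overlapped. In Myh6-tg hearts it was 0.22, 0.29 and 0.35. Replicate 1, which was low in both means (5.28 and 5.06), thus had a difference like those of replicates 2 and 3. The size of the score depends on its genes, and with medians in place of means the Myh6-tg hearts differed from Myh6-ctl by 0.41 instead of 2.09.

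**Figure D3:**
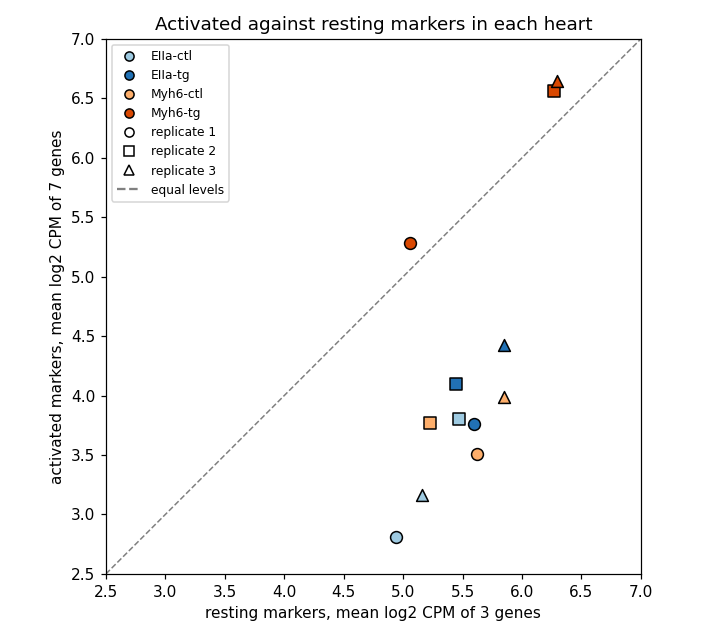
Mean log2 CPM of the 7 activated markers (vertical axis) against that of the 3 resting markers (horizontal axis) in each of the 12 hearts, coloured by group, with a dashed line at equal levels. The 3 Myh6-tg hearts lie above the line and the 9 other hearts below it.

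Myh6-tg replicate 1 was the lowest of its group for 6 of 7 activated and 3 of 3 resting markers, beside 41.4% of all 15298 genes tested in the Myh6 hearts. It was also the heart of its group with Y-linked transcripts, and the part of either in the values above was not tested.

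Further fibroblast genes were counted in 3 lists, which were drawn up with earlier results of these data known. Among 30 other genes of activated fibroblasts, 23 rose and 0 fell in Myh6-tg hearts, with a median log2 fold change of 2.00. Lox, which cross-links collagen, rose from 10.5 ± 1.40 to 565 ± 95.1 CPM (log2 5.74, SE 0.26, adjusted p = 0.000402). Ltbp2, a protein of elastic fibres, rose from 4.28 ± 0.652 to 176 ± 74.9 CPM (log2 5.36, SE 0.38, adjusted p = 0.00102). The matrix proteins Thbs4 (log2 5.93, SE 1.06, adjusted p = 0.0116) and Comp (log2 5.84, SE 1.18, adjusted p = 0.0163) were more uneven, since single Myh6-tg hearts held between 37.5 and 747 CPM of Thbs4 and between 10.2 and 419 CPM of Comp. Named after their values were seen, Acta2, the smooth muscle actin of myofibroblasts, and Tagln had log2 fold changes of -0.13 and 0.43 and did not pass the test (adjusted p = 0.798 and 0.162).

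In EIIa-tg hearts 5 of the same 30 genes rose and 1 fell (median log2 fold change 0.54). Timp1, an inhibitor of matrix proteases, rose from 1.57 ± 1.16 to 16.2 ± 9.01 CPM (log2 3.36, SE 0.60, adjusted p = 0.0178). Ctgf (log2 1.97, SE 0.25, adjusted p = 0.0135), a matricellular protein induced by TGFβ and by mechanical stress, and Lox (log2 1.91, SE 0.31, adjusted p = 0.0166) rose too. Ddah1, which degrades methylated arginines, fell (log2 -1.70, SE 0.30, adjusted p = 0.0170). The count of 5 was 0 without EIIa-ctl replicate 1 or 3 or EIIa-tg replicate 1, 1 without EIIa-tg replicate 3 and 9 without EIIa-ctl replicate 2.

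Of 25 other genes of resting fibroblasts and of fibroblasts in general, 8 rose and 0 fell in EIIa-tg hearts (median 0.42). The 4 with the widest change were Mgp, an inhibitor of calcification (log2 1.21, SE 0.22, adjusted p = 0.0186), Pi16 (log2 1.05, SE 0.26, adjusted p = 0.0334), Medag (log2 1.00, SE 0.20, adjusted p = 0.0221) and the proteoglycan Dcn (log2 0.94, SE 0.17, adjusted p = 0.0186). Without EIIa-ctl replicate 1 or 3 or EIIa-tg replicate 1 or 3, 0 were called. In Myh6-tg hearts 3 rose and 3 fell (median -0.03). These shares are near the 8.96% and 9.38% of all genes, so the count sets the list apart in neither direction. Mgp rose from 200 ± 88.3 to 922 ± 163 CPM (4.61-fold, SE 0.37 on the log2 scale, adjusted p = 0.00972) and Mfap4, of the microfibrils, rose as well (log2 2.60, SE 0.39, adjusted p = 0.00685). Efemp1, an extracellular glycoprotein, fell from 13.5 ± 3.34 to 1.88 ± 0.205 CPM (log2 -2.84, SE 0.27, adjusted p = 0.00205), and Clec3b fell (log2 -1.97, SE 0.36, adjusted p = 0.0125). Without Myh6-tg replicate 1, 9 of the 25 were higher, and without Myh6-ctl replicate 1, 1 was lower.

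**Figure D4:**
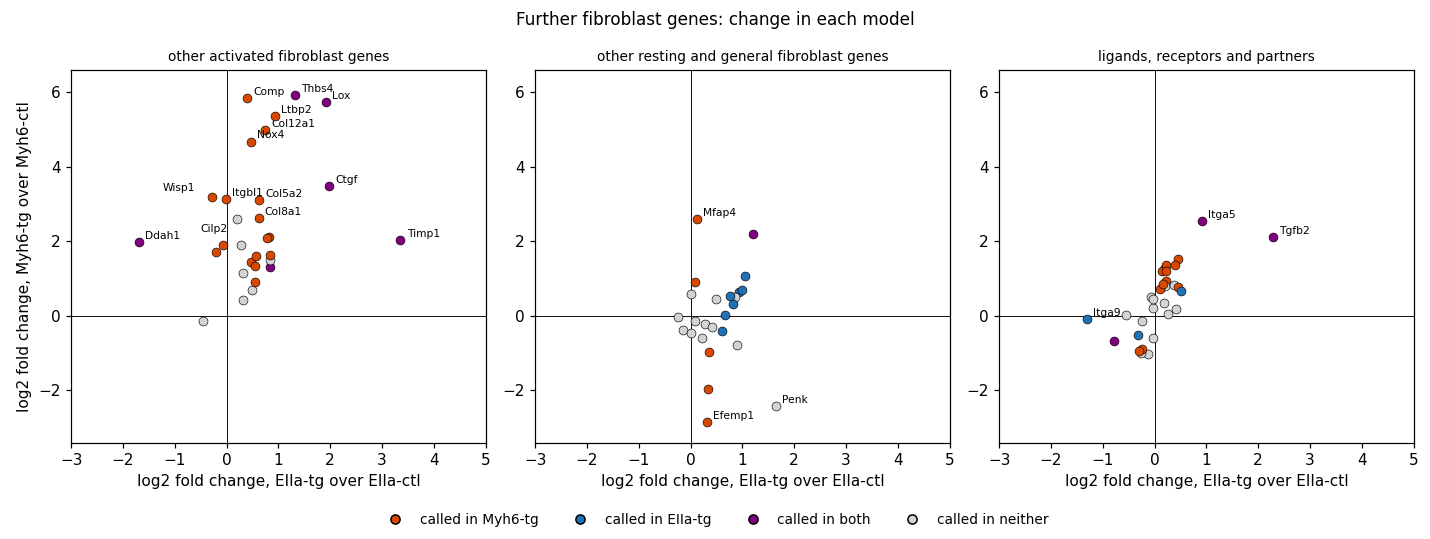
Log2 fold change in Myh6-tg against Myh6-ctl hearts (vertical axis) and in EIIa-tg against EIIa-ctl hearts (horizontal axis) for the 3 lists of further fibroblast genes, one panel per list and one point per gene, coloured by the comparison in which it passed the test. In the list of 30 activated genes 23 points are called higher in Myh6-tg hearts, and in the list of 25 resting and general genes 3 are.

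The third list held 31 ligands, receptors and partners of the markers, such as TGFβ, PDGF and their receptors and the integrins that bind fibronectin, periostin and tenascin-C. In Myh6-tg hearts 12 rose and 3 fell (median 0.50), where 8.96% of all genes were called higher and 9.38% lower. The share that fell is near that of all genes, so nothing is read from it. Itga5, the fibronectin receptor subunit, rose from 63.2 ± 6.10 to 368 ± 35.5 CPM (log2 2.54, SE 0.19, adjusted p = 0.00111). The integrin subunits Itgb3 (log2 1.53, SE 0.40, adjusted p = 0.0370) and Itgb5 (log2 1.36, SE 0.19, adjusted p = 0.00583) rose, as did the ligand Tgfb2 (log2 2.12, SE 0.56, adjusted p = 0.0378). The count of 12 was 3 without Myh6-ctl replicate 1, 7 without Myh6-ctl replicate 3, 5 without Myh6-tg replicate 2 and 4 without Myh6-tg replicate 3. The 3 lower genes became 0 without Myh6-ctl replicate 1, 5 without Myh6-tg replicate 1 and 1 without Myh6-tg replicate 2 or 3.

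In EIIa-tg hearts 3 of the 31 rose and 3 fell (median 0.16), shares near the 8.65% and 8.30% of all genes, so the count sets the list apart in neither direction. Tgfb2 rose from 13.7 ± 4.55 to 67.5 ± 28.9 CPM (log2 2.29, SE 0.33, adjusted p = 0.0157) and Itga5 rose (log2 0.91, SE 0.20, adjusted p = 0.0257). Itga9, a receptor subunit for tenascin-C, fell (log2 -1.31, SE 0.22, adjusted p = 0.0166), and so did Meox2, the paralog of Meox1 (log2 -0.78, SE 0.20, adjusted p = 0.0342). Neither direction had a call without EIIa-ctl replicate 1 or 3 or EIIa-tg replicate 1. The higher genes were 1 without EIIa-tg replicate 3 and 5 without EIIa-tg replicate 2, and the lower ones 1 without EIIa-ctl replicate 2. Between the control groups edgeR called 0 genes in each of the 3 lists, with 7, 9 and 5 at an unadjusted p under 0.05. DESeq2 called 3 of the 30, 4 of the 25 and 1 of the 31, beside 428 of 19244 genes in all. The change differed between the models for 12 of the 30 activated genes, all with the higher change in Myh6-tg hearts (median difference 1.56). It differed for 4 of the 25 resting and general genes, 1 higher and 3 lower (median -0.36), and for 5 of the 31, all higher (median 0.44), beside a median of -0.04 for all genes. The 1 higher resting gene was 3 without Myh6-tg replicate 1 and 0 with any other heart left out, and the 3 lower ones were 5 without Myh6-tg replicate 1. The 5 of the ligand and receptor list were 3 when EIIa-ctl replicate 2 was left out, and also 3 when EIIa-tg replicate 1 was.

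Markers of other cell types moved in the same hearts, and their part in the results was not tested. Their calls in EIIa-tg hearts changed when a heart was left out, like those of the members and of all genes. Without EIIa-ctl replicate 1 or 3 or EIIa-tg replicate 1, 0 genes of the cardiomyocyte, endothelial, smooth muscle and pericyte, macrophage, valve, epicardial and lymphocyte lists were called there, and without EIIa-tg replicate 3 there was 1, of smooth muscle and pericytes. Of 12 cardiomyocyte markers 7 were lower in Myh6-tg hearts, and their summed level was 42813 to 59809 CPM in Myh6-ctl hearts and 36369, 17054 and 13018 CPM in Myh6-tg replicates 1, 2 and 3. Without Myh6-ctl replicate 1, 3 of the 12 were lower, and without Myh6-tg replicate 2, 2. In EIIa-tg hearts 2 of the 12 were lower, with a sum of 27967 to 49561 CPM against 56972 to 67101 CPM in EIIa-ctl. This count was 6 by DESeq2 and by FPKM at either pseudocount, 1 without EIIa-ctl replicate 2 and 9 without EIIa-tg replicate 2. With all 12 hearts in the fit, 1 epicardial and 1 valve gene were called in EIIa-tg hearts. The cardiomyocyte, endothelial, smooth muscle and pericyte, macrophage and lymphocyte lists then had 0. With the replicate number as a block, or by FPKM without a filter, 0 genes of these lists were called. Over all genes these settings called 227, 1 and 1.

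All 10 macrophage markers were higher in EIIa-tg hearts, where they summed to 1079 to 1418 CPM against 510 to 783 CPM in EIIa-ctl. With all 12 hearts in the fit 0 of the 10 were called there. In Myh6-tg hearts edgeR called 0 of the 10 (3 at an unadjusted p under 0.05), against 2 by DESeq2, 3 with all 12 hearts in the fit and 6 by FPKM at either pseudocount, and the sums were 2547, 1194 and 1145 CPM in replicates 1, 2 and 3 against 971 to 1584 CPM in Myh6-ctl. Replicate 1, with low activated markers, thus had the highest macrophage sum.

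Smooth muscle and pericyte markers moved in both directions, with 2 of 10 higher and 3 lower in each model. The 2 higher in Myh6-tg hearts were 0 without Myh6-ctl replicate 1, 2 without Myh6-tg replicate 1 and 1 with any of the other Myh6 hearts left out. Their sum was 3133 to 3351 CPM in EIIa-ctl against 4022 to 5599 CPM in EIIa-tg hearts. For the Myh6 model it was 3173 to 4353 CPM in controls against 9463 to 13694 CPM. The median log2 fold change of the 10 was yet -0.11 in the EIIa and -0.44 in the Myh6 comparison, with 2 and 4 of them positive. The list holds Des, which cardiomyocytes also express and which was among the higher ones in both. Endothelial markers were lower in 3 of 10 cases in EIIa-tg and called in 0 of 10 in Myh6-tg hearts (3 at an unadjusted p under 0.05, 3 lower by DESeq2 and with all 12 hearts in the fit, 2 without Myh6-ctl replicate 2, 1 without Myh6-tg replicate 1). The 3 in EIIa-tg hearts were 1 without EIIa-ctl replicate 2 and 0 with all 12 hearts in the fit. The list had sums of 1692 to 2155, 1738 to 2004, 1500 to 2089 and 1237 to 1673 CPM in EIIa-ctl, EIIa-tg, Myh6-ctl and Myh6-tg hearts.

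Valve markers, some of which connective tissue shares, were higher in 3 of 6 tested in EIIa-tg and 2 of 5 tested in Myh6-tg hearts (4 without Myh6-tg replicate 1), with sums over all 8 of 28.6 to 38.7, 57.1 to 146, 45.2 to 59.2 and 167 to 270.2 CPM in the same order of groups. The epicardial list had 1 of 7 tested higher in EIIa-tg and 0 called in Myh6-tg hearts (11.6 to 24.4, 28.3 to 40.7, 29.0 to 54.4 and 29.6 to 42.2 CPM). In EIIa-tg hearts only 1 of the 7 had a positive log2 fold change (median -0.75), although the sum was higher. For Schwann cells 0 were called in either model, of 7 tested in the EIIa and 8 in the Myh6 comparison (16.4 to 20.6, 22.2 to 26.0, 20.2 to 36.7 and 13.9 to 24.1 CPM). The lymphocyte list had 9 genes with counts, of which 1 was higher in EIIa-tg (0 without EIIa-ctl replicate 2) and 1 lower in Myh6-tg hearts, the latter 0 with any Myh6 heart left out (13.2 to 14.4, 17.1 to 20.2, 16.6 to 30.5 and 16.3 to 21.0 CPM). No marker of these lists was at 0 in all 12 hearts.

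Genes with the pattern most like that of a marker were sought by Pearson's correlation of log2 CPM over the 12 hearts among 10379 genes. The hearts share their groups, so these values describe the order of groups more than single hearts, and r over the 9 hearts without Myh6-tg is given beside each. For Postn the nearest were Col8a1 (0.993 and 0.945), Ltbp2 (0.988 and 0.905), Dbn1 (0.984 and 0.865), Fn1 (0.982 and 0.882) and Col12a1 (0.982 and 0.729). For Cthrc1 they were Eif3d (0.991 and 0.945), Psmd8 (0.984 and 0.840), Ilk (0.983 and 0.866), Mfap2 (0.983 and 0.924) and Cnppd1 (0.982 and 0.832). Of the 5 nearest to Postn, 4 were matrix genes, and of those to Cthrc1 1 was, Mfap2.

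For Pdgfra the nearest were Il4ra (0.987 and 0.966), Fads1 (0.979 and 0.926), Apbb1ip (0.976 and 0.944), G6pdx (0.974 and 0.940) and Kank1 (0.972 and 0.841). Tcf21 had less close neighbours, namely Oaf (0.944 and 0.844), 1190002N15Rik (0.930 and 0.716), Tmem168 (0.908 and 0.684), Rcn3 (0.908 and 0.739) and Serpinb9 (0.907 and 0.680). None of the genes nearest to Pdgfra or Tcf21 was a member.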

How the data were processed

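RNA of heart tissue from 12 mice was sequenced by the authors (paired ends, NEBNext Ultra libraries), and the notes name HISAT2 2.0.4, StringTie 2.2.1 and DESeq2, with GRCm39 and mm10 in the labels and GRCm38 in the methods. The counting program, its use of strand and the annotation release are not given in the sources used here. The authors deposited raw read counts per gene, which were tested here, and FPKM values, which were used for levels across genes and in alternatives. Hearts were grouped by title. Counts were tested with edgeR 4.0.16 (R 4.3.3): genes with low counts were removed by filterByExpr, libraries scaled by TMM, and each comparison of 6 hearts fitted by quasi-likelihood, with Benjamini-Hochberg adjustment over all genes tested and calls at an adjusted p under 0.05. The difference between models was an interaction term in all 12 hearts. Standard errors are the log2 fold change over the root of F. CPM are counts over scaled library size. The interval of a low count covers counting error only.

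The members and all gene lists were chosen with earlier results of these data known. The text names all 10 members, up to 4 called genes of each further list per comparison by absolute log2 fold change, and the 5 genes most correlated with Cthrc1, Postn, Pdgfra and Tcf21 among those with a mean of at least 5 CPM. Members have no test in the Myh6 comparison or the difference between models. The sources call controls littermates without tying single mice to litters, so shared litters could not be allowed for. The p-values set each difference against the spread between these hearts. Deviations from the group means correlated between Myh6 hearts of the same number (r = 0.285, 0.184 and 0.173). No label pairs these mice, and replicate 1 was the heart with Y-linked transcripts in both groups, so these values cannot show a pairing. The main tests were run without one. Alternatives were DESeq2 1.42.0, its size factors, other filters, all 12 hearts, a replicate block, removal of mitochondrial genes, stricter thresholds, limma 3.58.1 on log2(FPKM + 1) or log2(FPKM + 0.1), and each heart left out. The code was tested on simulated data. Plots were drawn with matplotlib 3.10.9.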

Additional observations from a re-analysis of the deposited data

Results flagged for a closer look

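Among the further fibroblast genes, 21 changed differently in the 2 models by the interaction term in edgeR's quasi-likelihood test with Benjamini-Hochberg adjustment. Values are the log2 change in Myh6-tg minus that in EIIa-tg hearts. In the collagen and cross-linking group these were Col5a2 (2.47, adjusted p = 0.00947), Col8a1 (1.99, adjusted p = 0.0442), Col12a1 (4.24, adjusted p = 0.00418) and Lox (3.82, adjusted p = 0.00150). Of other matrix proteins, Comp (5.43, adjusted p = 0.0263), Thbs4 (4.59, adjusted p = 0.0357), Ltbp2 (4.43, adjusted p = 0.00389), Sparc (1.92, adjusted p = 0.0135), Itgbl1 (3.13, adjusted p = 0.00238) and Mfap4 (2.46, adjusted p = 0.0459) had the higher change in Myh6-tg hearts. The oxidase Nox4 (4.19, adjusted p = 0.000327) and the WNT-induced Wisp1 (3.47, adjusted p = 0.00611) did as well.

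Ddah1 fell in EIIa-tg hearts (log2 -1.70) and rose in Myh6-tg hearts (log2 1.97), a difference of 3.67 (adjusted p = 0.00114). The change in Myh6-tg hearts was the lower one for 3 genes of resting or general fibroblasts, namely Scara5 (-1.32, adjusted p = 0.0220), Clec3b (-2.31, adjusted p = 0.0140) and Efemp1 (-3.16, adjusted p = 0.00336). Of the receptors, Itgb5 (1.13, adjusted p = 0.0134), Itgb1 (1.04, adjusted p = 0.0153), Itga5 (1.63, adjusted p = 0.0112) and Igf1r (1.08, adjusted p = 0.0102) had the higher change in Myh6-tg hearts. Itga9 differed as well (1.22, adjusted p = 0.0492), with a fall in EIIa-tg hearts (log2 -1.31) and a log2 change of -0.09 in Myh6-tg hearts. Age, Cre line and injections differ between the models together with the cells that express the transgene, and these cannot be told apart.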

How the results depend on the processing

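The log2 fold changes of members under the alternatives were judged by 2 rules. In the EIIa comparison and between controls, 23 lost and 3 gained the call and 14 changed sign. In the Myh6 comparison and the difference between models, which had no test, 12 moved by at least the SD within groups. The other 634 counted as the same, and in the untested comparisons a change of sign within that SD is among them. The 3 members called higher in EIIa-tg hearts were 0 with all 12 hearts, with the replicate block, with FPKM without a filter and at an adjusted p under 0.01 with a 2-fold change, and 0 to 3 with a heart left out. Of the 30 other activated genes, 5 were called there, against 9 by DESeq2, 2 with all 12 hearts, 0 with the replicate block, 8 with FPKM at either pseudocount, 0 with FPKM without a filter, 0 at the stricter threshold and 0 to 9 with a heart left out. Over all genes 2527 were called, 227 with all 12 hearts and 1 with the block. In EIIa hearts same-numbered deviations did not correlate (r = 0.060, -0.070 and -0.050), nor did those of the control groups (0.124, 0.060 and -0.031). Replicate 1 was the heart with Y-linked transcripts in every group, so the number is tied to that difference and the block takes it up in part. In the Myh6 hearts the block gave 25 instead of 23 activated genes and 2 instead of 0 lower endothelial markers.

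In EIIa-tg hearts Fap (-0.12) had log2 0.0397, 0.0595 and 0.0397 by FPKM with a pseudocount of 1, 0.1 and no filter, and -0.27 to 0.0622 with a heart left out, and Meox1 (-0.12) had 0.0561, 0.0611 and 0.0561, and -0.37 to 0.11. FPKM moved the median of all genes to 0.16 and 0.20 in the EIIa and to 0.34 and 0.43 in the Myh6 comparison. Between controls DESeq2 called 1 member and 2 other activated genes higher (0 to 1 with a heart left out), beside 428 of 19244 genes in all. With a heart left out Cthrc1 was at -0.77 to 0.10 and Fn1 at -0.0768 to 0.49. The activated minus resting score differed by 0.40 in the EIIa model and by -0.30 with medians. By FPKM it differed by 0.0285 with a pseudocount of 1 and by 0.305 with 0.1. In the Myh6 model it differed by 2.09, by 1.73 and 2.04 with FPKM at these pseudocounts, and by 0.41 with medians. It differed by 1.80, 1.52, 2.55, 1.81, 2.52, 2.34, 2.58 and 1.70 without Postn, Cthrc1, Fap, Cilp, Tnc, Meox1, Pdgfra and Dpt. Between controls it was 0.12, with -0.0345 and 0.0682 by FPKM at these pseudocounts, -0.0401 without Tnc and -0.0556 to 0.27 with a heart left out. Cthrc1, at 6 to 18 counts in control hearts, is where depth limits the fold change most.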
